A study of Mus musculus with 9 samples.

Results

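The 35 genes described here encode the enzymes that add and remove acetyl groups on histones, together with bromodomain proteins and the scaffolds that hold deacetylases. They were chosen by name, and all 35 were found among the 16428 genes of the deposited table. By role they fall into 8 acetyltransferases (Kat2a, Kat2b, Kat5, Kat6a, Kat6b, Kat7, Kat8 and Hat1), 11 zinc-dependent deacetylases (Hdac1 to Hdac11), 7 sirtuins (Sirt1 to Sirt7), 6 bromodomain genes (Brd1, Brd2, Brd3, Brd7, Brd8 and Brd9) and 3 corepressor scaffolds (Ncor1, Sin3a and Sin3b). Poly(A) RNA was sequenced from mouse embryonic fibroblasts of the genotype CARM1f/f ER-Cre, in 9 libraries. Their Carm1 alleles are floxed, and their Cre recombinase becomes active on binding tamoxifen. The 3 KO libraries came from cells given 4-OHT, an active tamoxifen metabolite, at 2 uM for 6 days, which deletes the floxed part of Carm1. The 3 CARM1i libraries came from cells given the CARM1 inhibitor TP-064 at 1 uM for 6 days, and the 3 WT libraries from cells of the same genotype with no treatment. All 9 libraries therefore share the floxed alleles and the recombinase, an effect of 4-OHT itself cannot be told apart from the deletion, and none of the groups is labelled as vehicle. CARM1 is an arginine methyltransferase whose substrates include histone H3 and the acetyltransferases p300 and CBP, and the series title names acetyltransferase activity as its subject. The data address whether the transcripts of the acetylation machinery differ after the deletion or the inhibitor.

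Acetyltransferases transfer the acetyl group of acetyl-CoA to lysines, which weakens the contact of histones with DNA and creates docking sites for bromodomains. Zinc-dependent deacetylases and the NAD-dependent sirtuins remove the group, and most class I deacetylases work inside complexes built on scaffolds such as SIN3 and NCOR. HAT1 differs from the KAT enzymes in that it acetylates newly made histone H4 before it is deposited on replicating DNA. In fibroblasts the class IIa deacetylases shuttle between cytoplasm and nucleus and restrain MEF2 factors, and SIRT2 is mainly a cytoplasmic enzyme with tubulin among its substrates.

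The promoters of the 3 genes with the largest differences in KO cells are shown because these genes carry the main comparison. They are RefSeq windows on GRCm38.p6 that run from 250 bases before to 50 bases after the start that RefSeq gives, 5′ to 3′ on the gene's strand. For Hat1 that start lies 302 bases inside the longest extent of the gene in GENCODE, so the window falls within the gene coordinates given below. The starts differ by 17 bases for Sirt2 and by 0 for this window of Hdac7. Capitals mark CCAAT (or its complement ATTGG) and the E-box CACGTG.
Hat1, chr2:71389010-71389309, plus strand: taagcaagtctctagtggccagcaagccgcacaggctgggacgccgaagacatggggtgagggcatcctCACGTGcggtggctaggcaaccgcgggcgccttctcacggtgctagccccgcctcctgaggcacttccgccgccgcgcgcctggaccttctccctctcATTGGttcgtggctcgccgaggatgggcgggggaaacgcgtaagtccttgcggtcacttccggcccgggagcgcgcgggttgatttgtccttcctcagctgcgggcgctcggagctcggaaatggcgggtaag
Hdac7, chr15:97844453-97844752, minus strand: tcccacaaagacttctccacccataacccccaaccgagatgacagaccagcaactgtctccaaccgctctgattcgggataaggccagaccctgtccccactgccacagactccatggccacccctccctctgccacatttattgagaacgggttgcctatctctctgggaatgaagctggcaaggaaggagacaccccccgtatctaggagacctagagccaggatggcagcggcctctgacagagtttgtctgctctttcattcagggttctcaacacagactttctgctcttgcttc
Sirt2, chr7:28766502-28766801, plus strand: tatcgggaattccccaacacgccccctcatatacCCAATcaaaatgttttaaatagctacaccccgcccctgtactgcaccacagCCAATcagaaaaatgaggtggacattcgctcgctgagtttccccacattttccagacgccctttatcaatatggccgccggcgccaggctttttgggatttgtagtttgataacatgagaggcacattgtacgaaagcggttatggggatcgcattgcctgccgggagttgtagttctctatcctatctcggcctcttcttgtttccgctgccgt
The Hat1 window held 1 E-box and 1 CCAAT match, the Sirt2 window held 2 CCAAT matches, and the Hdac7 window, the most upstream of the 4 listed for that gene, held neither. Over 32544 windows of this length, 7.17% held an E-box and 37.4% held CCAAT on either strand. The GC box GGGCGG was in 35.9% of all windows and in 29 of the 45 windows listed for the 35 genes, those of Hat1 and Sirt2 included, but not in the Hdac7 window shown. The E2F core, taken as TTCCCGC or TTCGCGC or TTGCCGC or TTGGCGC, searched on both strands and allowed to overlap other motifs, was in 9.64% of all windows and in none of these 3. Windows were found for 30 of the 35 genes, not for Brd8, Hdac1, Hdac3, Hdac10 and Kat6a, and in 5 of these genes (Brd1, Brd7, Kat2a, Sirt4 and Sirt6) a window held the E2F core. The 45 windows of the 30 genes had a median of 20 CpG dinucleotides, against 7 over all windows.

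As a check of the labels, Carm1 measured 794, 711 and 770 in KO, 1112, 1072 and 986 in CARM1i and 1079, 1143 and 1091 in WT (KO against WT -0.54 ± 0.06, limma adjusted p = 5.493e-07). Counts over the whole gene do not separate the floxed exons. Libraries held 28657018 to 35842771 reads. CARM1i replicate 3 stood apart from the other CARM1i libraries on the third principal component of all genes, at -19.5, against 11.7 for CARM1i replicate 2. Most fibroblast markers were abundant in all groups, with Vim averaging 63397 in KO, 69039 in CARM1i and 72379 in WT. Lum averaged only 5.38, 5.77 and 6.74 in the same order, and Fap 19.5, 26.7 and 27.9. At an adjusted p under 0.05 in limma, 7 of 11 tested fibroblast markers fell in KO and 2 rose, and in CARM1i 4 fell and 2 rose. The summed values of the 4 macrophage markers in the table were 292 to 334 in KO, 294 to 323 in CARM1i and 253 to 318 in WT, although Cd68 rose in KO (0.98 ± 0.27, limma adjusted p = 0.007039) and Cd14 fell (-0.43 ± 0.14, 0.02141). Of the endothelial markers Egfl7 rose in KO (0.35 ± 0.12) and CARM1i (0.46 ± 0.12), and the other 3 tested were not called in either. In the order KO, CARM1i and WT, Tek averaged 238, 197 and 234, and Cdh5 37.6, 23.8 and 24.8. Kdr averaged 33.5, 20.4 and 20.8 in the same order. Pecam1 averaged 7.21, 6.53 and 2.68 in KO, CARM1i and WT, and the muscle marker Acta1 rose in KO (0.61 ± 0.17). The summed values of 5 neural markers were 6032 to 6363, 5995 to 6702 and 7694 to 8024 in KO, CARM1i and WT. Most of each sum was Ncam1, which averaged 5681, 5730 and 7097 in the same order. Nes averaged 260, 395 and 510 and Tubb3 36.1, 79.0 and 109, while Map2 averaged 170, 168 and 173. Krt18, the one epithelial marker in the table, measured 91.9 to 126 in KO, 32.4 to 43.8 in CARM1i and 23.3 to 48.0 in WT. The part of these shifts in the results that follow was not tested, and in bulk RNA fewer cells of a type and less RNA per cell cannot be told apart.

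In untreated cells the 35 genes spanned a wide range of levels. Levels were compared between genes as normalized read count per kb of merged exons. Brd2, whose protein binds acetylated histones at active promoters, was highest at 1064 per kb in WT, followed by the class I deacetylase genes Hdac2 (998) and Hdac3 (823). The WT ranges of Brd2 (1016 to 1093) and Hdac2 (972 to 1024) overlapped, and both lay above that of Hdac3 (805 to 833). Hat1 led the acetyltransferases at 606 per kb, but its WT libraries (558 to 631) overlapped those of Kat2a (559 to 587), the GCN5 enzyme of the SAGA and ATAC coactivator complexes. The lowest acetyltransferase levels were those of Kat6a (146) and Kat6b (77.0), the MOZ and MORF enzymes. Among sirtuins, Sirt1 (386) and Sirt2 (338) stood highest, while the genes of the mitochondrial enzymes Sirt4 (67.8), Sirt5 (34.6) and Sirt3 (32.8) stood lowest. Hdac9, a class IIa gene of muscle and brain, was at 3.65 per kb and had only 28 to 71 reads in any library. The next lowest gene by reads was Sirt4 with 112 to 196, and the precision of both is correspondingly low. With the longest transcript as the length, Sirt2 moved from place 15 to place 7 and Kat2a from place 5 to place 11, while the 4 highest genes and the lowest gene held their places. By that length Sirt2 (804) stood above Sirt1 (465) and Kat6b (168) above Kat6a (147), and Hat1 was at 921 against 615 for Kat2a.

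**Figure D1:**
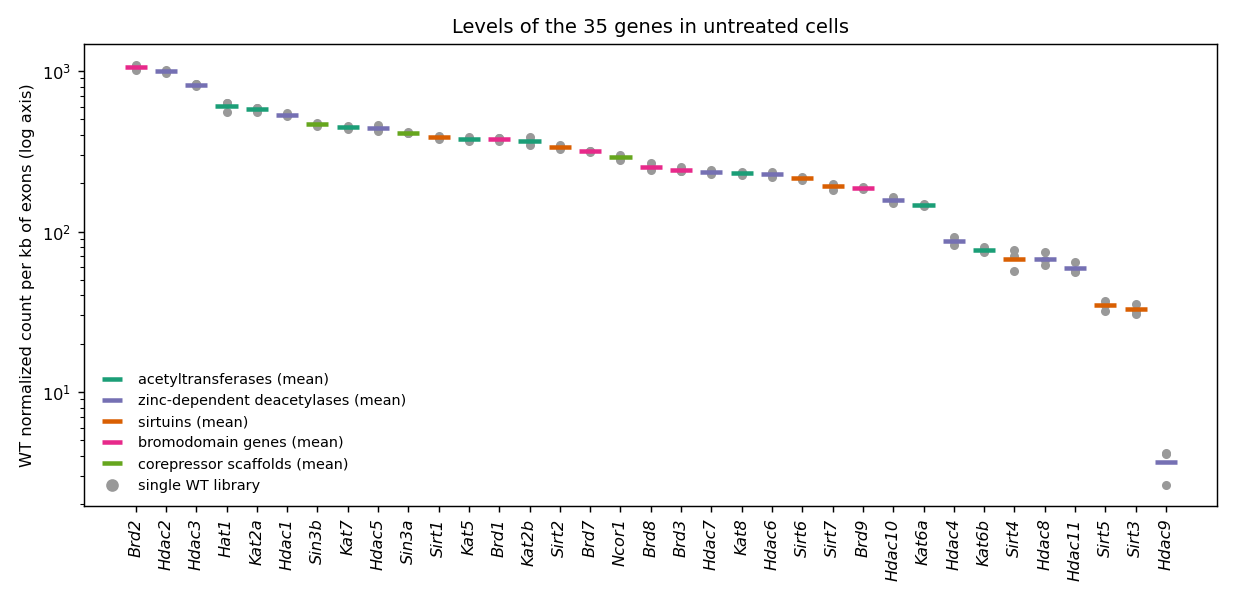
WT level of each of the 35 genes as normalized read count per kb of merged exons (log axis), with coloured bars for the mean of the 3 WT libraries by class and grey points for single libraries. Levels run from 3.65 per kb for Hdac9 to 1064 per kb for Brd2.

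Deletion of Carm1 was followed by changes in both directions among these genes, all of them smaller than 2-fold on average in the fit. In KO against WT, 4 of the 35 genes rose (Sirt2, Sirt7, Ncor1 and Sin3b) and 8 fell (Hat1, Hdac7, Brd3, Brd8, Hdac2, Kat7, Brd9 and Kat2a) at an adjusted p under 0.05 in limma, fitted over all 14560 genes with a mean of at least 10. That is 34.3% of the 35 genes, against 41.9% of all genes tested, so the share called was not above the background. Scaling libraries to equal totals gave 3 higher and 11 lower, and quantile scaling 3 and 9. All genes were 3114 higher and 2986 lower on the deposited scale, 2837 and 3285 with equal totals, and 3272 and 3000 after quantile scaling. By direction, the background was 21.4% higher and 20.5% lower. The median log2 fold change of the 35 genes was -0.07, against -0.0043 over all genes. KO and WT libraries did not overlap for 18 of the 35 genes, against 52.6% of all genes. Hat1, Hdac7 and Sirt2 had the largest changes, and Hat1 and Hdac7 fell while Sirt2 rose.

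Among the acetyltransferases 3 of 8 fell and none rose (37.5% called, against 41.9% of all genes). Their median log2 fold change was -0.07. Hat1 (ENSMUSG00000027018.11; mm10, chromosome 2, 71388958 to 71441622) measured 1179, 1176 and 1105 normalized reads in the KO libraries, 1541, 1535 and 1397 in the CARM1i libraries and 1822, 1816 and 1609 in the WT libraries. The 3 groups did not overlap, with KO lowest and WT highest. Its log2 fold change in KO against WT was -0.60 ± 0.06 (SE, n = 3 libraries each; limma adjusted p = 8.695e-08), a level 34.0% lower. In the same libraries the summed values of 24 S phase and mitosis genes were 40842 to 42332 in KO, 64760 to 67974 in CARM1i and 83051 to 87820 in WT, the same order as Hat1, and their part in the Hat1 result was not tested. Kat7, the HBO1 enzyme that acetylates histone H3 and H4 and takes part in origin licensing, measured 2199, 2130 and 2050 in KO, 2300, 2360 and 2392 in CARM1i and 2429, 2504 and 2481 in WT. It fell by 0.22 ± 0.04 on the log2 scale in KO (limma adjusted p = 0.0001569). Kat2a measured 1788, 1845 and 1894 in KO, 1800, 1860 and 1892 in CARM1i and 2044, 2040 and 1946 in WT. Its fall of 0.13 ± 0.04 in KO (limma adjusted p = 0.01899) passed the threshold, but the call ended without KO replicate 1 (adjusted p = 0.08473) or without WT replicate 1 or 2 (0.0688 and 0.07162). The other 5 genes were not called, and their log2 fold changes lay between -0.08 (Kat6a, 1274 ± 37.4 in KO and 1342 ± 12.5 in WT) and 0.08 (Kat6b, 1365 ± 40.6 in KO and 1295 ± 44.9 in WT). Kat5, the catalytic subunit of the TIP60 complex, was at 1301 ± 23 in KO and 1328 ± 36.2 in WT. Kat2b, the PCAF gene and close relative of Kat2a, was at 1717 ± 133 and 1784 ± 96.1, and Kat8, the MOF enzyme specific for H4K16, at 639 ± 42.9 and 669 ± 13.8 (KO and WT in each pair). Summed per kb over the 8 genes, acetyltransferase transcripts were at 2449 to 2506 in KO, 2661 to 2728 in CARM1i and 2797 to 2857 in WT libraries.

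Of the 11 zinc-dependent deacetylase genes 2 fell in KO, and the other 9 were not called (18.2% called, against 41.9% of all genes). Hdac7 (ENSMUSG00000022475.19; chromosome 15, 97792664 to 97844502), a class IIa gene known from blood vessels and thymus, measured 1061, 1120 and 1101 in KO, 1332, 1407 and 1383 in CARM1i and 1600, 1536 and 1638 in WT. No 2 groups overlapped, and KO was lowest. The log2 fold change was -0.54 ± 0.05 in KO against WT (limma adjusted p = 2.33e-08). Its class IIa relative Hdac5 measured 4196, 4177 and 4263 in KO, 4446, 4806 and 4001 in CARM1i and 3730, 3820 and 4045 in WT. In KO it was above WT in every library but not called (0.12 ± 0.05, limma adjusted p = 0.0568). Without CARM1i replicate 2 or 3, or without WT replicate 3, it was called (adjusted p 0.02331, 0.007765 and 0.02931). Per kb, the ratio of Hdac5 to Hdac7 was 3.04, 2.87 and 2.98 in KO, 2.57, 2.63 and 2.23 in CARM1i and 1.79, 1.91 and 1.90 in WT libraries. Hdac2, a class I catalytic subunit of the SIN3, NuRD and CoREST complexes, measured 3833, 3686 and 3945 in KO, 4344, 4243 and 4124 in CARM1i and 4581, 4466 and 4350 in WT. It fell by 0.22 ± 0.04 in KO (limma adjusted p = 5.892e-05). Its paralogue Hdac1, which occupies the same complexes, was at 1744 ± 18.7 in KO and 1849 ± 48.6 in WT and was not called (-0.08 ± 0.04, limma adjusted p = 0.1096). Hdac3, the catalytic subunit of NCOR complexes, was at 3411 ± 58.4 in KO and 3338 ± 64.8 in WT (0.03 ± 0.03), with a 95% interval of the log2 fold change from -0.04 to 0.10. Hdac4, called only without WT replicate 2 (adjusted p = 0.03284) or with libraries scaled to equal totals (0.04325), was at -0.11 ± 0.05. The class IIb genes Hdac6 (-0.02 ± 0.06), whose product deacetylates tubulin, and Hdac10 (-0.16 ± 0.07), a polyamine deacetylase gene, as well as Hdac8 (-0.17 ± 0.10), Hdac9 (-0.13 ± 0.27) and Hdac11 (0.08 ± 0.10) were not called.

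Sirtuin transcripts were higher for 2 of 7 genes in KO and lower for none (28.6% called, against 41.9% of all genes). Sirt2 (ENSMUSG00000015149.14; chromosome 7, 28766735 to 28788661) measured 2432, 2392 and 2348 in KO, 2022, 2012 and 1979 in CARM1i and 1654, 1735 and 1718 in WT. The 3 groups did not overlap, with KO highest. It rose by 0.49 ± 0.04 on the log2 scale, or by 40.4% (limma adjusted p = 7.766e-09), the most significant of the 35 genes. Sirt7, which encodes a nucleolar enzyme that removes acetyl groups from H3K18, measured 1116, 1133 and 1128 in KO, 1066, 1088 and 1107 in CARM1i and 936, 1019 and 995 in WT. It rose by 0.20 ± 0.05 in KO (limma adjusted p = 0.002963). The nuclear enzyme genes Sirt1 (2187 ± 44.8 in KO and 2058 ± 36 in WT) and Sirt6 (556 ± 30.8 and 599 ± 13.8) were not called. Of the mitochondrial enzymes, Sirt3, the main mitochondrial deacetylase, was at 221 ± 10 in KO and 196 ± 13.8 in WT, Sirt4 at 131 ± 20.9 and 163 ± 24.2, and Sirt5, a desuccinylase, at 213 ± 3.65 and 211 ± 14.6, and none was called. Sirt4 was called only without WT replicate 3 (-0.44, adjusted p = 0.03553).

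Bromodomain genes fell in 3 of 6 cases in KO and none rose (50% called, against 41.9% of all genes). Brd3, a BET family reader of acetylated histones, measured 1490, 1428 and 1443 in KO, 1717, 1686 and 1706 in CARM1i and 1761, 1855 and 1749 in WT. Its log2 fold change in KO was -0.30 ± 0.04 (limma adjusted p = 1.075e-05). The KO libraries stood below both other groups, and CARM1i stood just below WT. Brd2, of the same family, was at 8170 ± 201 in KO and 8327 ± 325 in WT (-0.03 ± 0.03, 95% interval -0.10 to 0.05), and KO and WT libraries overlapped. Brd8, a subunit of the TIP60 complex, measured 2156, 2287 and 2211 in KO, 2545, 2515 and 2370 in CARM1i and 2566, 2844 and 2682 in WT, and fell by 0.28 ± 0.04 in KO (limma adjusted p = 4.58e-05). Brd9, which defines the non-canonical BAF remodelling complex, measured 1169, 1177 and 1179 in KO, 1247, 1186 and 1276 in CARM1i and 1301, 1279 and 1326 in WT, and fell by 0.15 ± 0.04 in KO (limma adjusted p = 0.01264). Brd7, a subunit gene of the PBAF remodelling complex, was above WT in every KO library but not called (0.09 ± 0.04, limma adjusted p = 0.09426). Brd1, a scaffold of HBO1 and MOZ complexes, was at 2984 ± 97 in KO and 3173 ± 72.3 in WT and missed the threshold narrowly (-0.09 ± 0.04, limma adjusted p = 0.05348). It was called in 7 of 20 alternative settings, among them without KO replicate 1 (adjusted p = 0.02529), WT replicate 2 (0.04883) or CARM1i replicate 3 (0.04353).

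Among the corepressor scaffolds, Sin3b and Ncor1 rose in KO, and Sin3a did not pass (66.7% called, against 41.9% of all genes). Sin3b measured 3797, 3748 and 4080 in KO, 3585, 3511 and 3709 in CARM1i and 3353, 3444 and 3475 in WT, and rose by 0.18 ± 0.04 (limma adjusted p = 0.001019). Ncor1, which recruits HDAC3 to nuclear receptors, measured 3940, 4187 and 3973 in KO, 4286, 3952 and 4019 in CARM1i and 3848, 3745 and 3574 in WT, and rose by 0.12 ± 0.04 (limma adjusted p = 0.02694). That call ended after quantile scaling (adjusted p = 0.1782), after scaling libraries to equal totals (0.05725), without the intensity trend (0.09604), and without KO replicate 2 (0.1351) or WT replicate 2 or 3 (0.05682 and 0.116). Sin3a was at 2162 ± 133 in KO and 2225 ± 16.2 in WT (-0.04 ± 0.05).

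**Figure D2:**
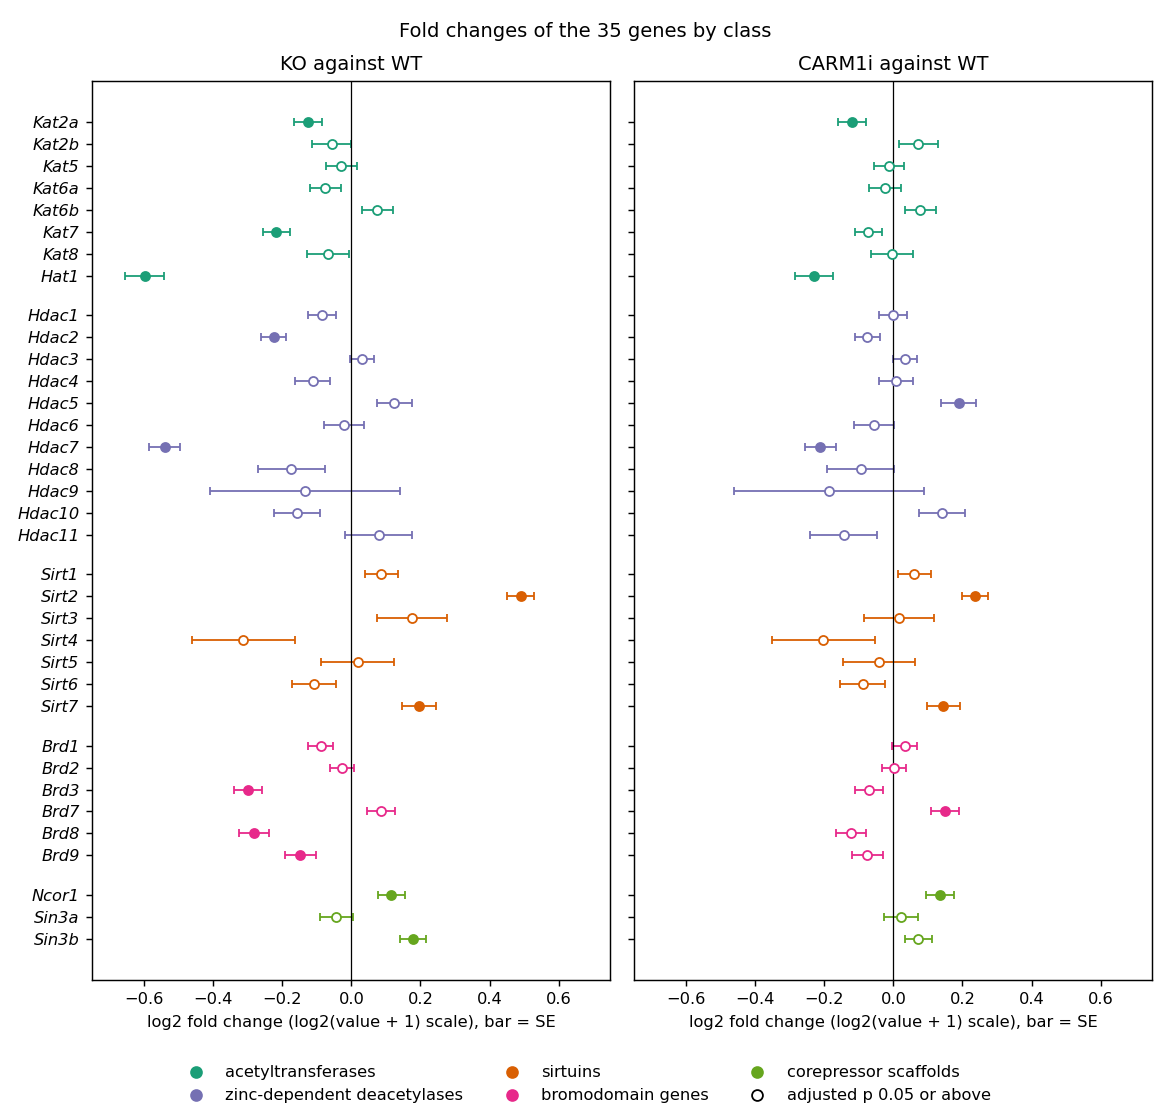
Log2 fold change with SE of each of the 35 genes in KO against WT (left) and CARM1i against WT (right), coloured by class, with filled symbols for an adjusted p under 0.05. Both panels share the WT libraries. Hat1 (-0.60), Hdac7 (-0.54) and Sirt2 (0.49) lie farthest from 0 in KO, and no gene in CARM1i lies beyond 0.24 in either direction.

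In CARM1i against WT, 5 of the 35 genes rose (Sirt2, Hdac5, Brd7, Sirt7 and Ncor1) and 3 fell (Hat1, Hdac7 and Kat2a), which is 22.9% against 19.1% of all genes tested. The background by direction was 10.5% higher and 8.59% lower, and the median of the 35 genes was -0.01. Quantile scaling gave 4 higher and 5 lower, and scaling to equal totals gave 4 of each. All genes were 1533 higher and 1251 lower on the deposited scale, 1503 and 1401 after quantile scaling, and 1346 and 1510 with equal totals. CARM1i and WT libraries did not overlap for 16 of the 35 genes, against 33.4% of all genes. Every called change was under 1.2-fold. Sirt2 again stood highest, at 0.24 ± 0.04 (limma adjusted p = 0.0002043), and Hdac7 (-0.21 ± 0.05, limma adjusted p = 0.00269) and Hat1 (-0.23 ± 0.06, limma adjusted p = 0.006721) stood lowest. The Hat1 call ended without the intensity trend (adjusted p = 0.06207). Sirt2 and Hdac7 were called in all 20 alternatives.

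Brd7 was one of 2 genes called in CARM1i and not in KO. It measured 1867, 1852 and 1814 in CARM1i, 1704, 1773 and 1818 in KO and 1650, 1676 and 1663 in WT, and rose by 0.15 ± 0.04 in CARM1i against WT (limma adjusted p = 0.01257), a call that held in all 20 alternatives. Its difference between CARM1i and KO was not called (0.06 ± 0.04, limma adjusted p = 0.2814). The other was Hdac5, at 0.19 ± 0.05 (limma adjusted p = 0.0128), whose CARM1i replicate 3 value of 4001 lay inside the WT range. The Hdac5 call ended without CARM1i replicate 2 (adjusted p = 0.0761), without WT replicate 1 or 2 (0.06512 and 0.05417) and without the intensity trend (0.1155). Sirt7 (0.15 ± 0.05, limma adjusted p = 0.0421) and Kat2a (-0.12 ± 0.04, limma adjusted p = 0.04926) lay near the threshold and were called in 7 and 8 of 20 alternatives. Without single libraries the Sirt7 call held only when WT replicate 2 was left out, and the Kat2a call only when CARM1i replicate 3 or WT replicate 3 was left out. Ncor1 rose by 0.13 ± 0.04 (limma adjusted p = 0.02497) and was called in 15 of 20, but not without CARM1i replicate 1 (adjusted p = 0.1263) or WT replicate 2 or 3 (0.06436 and 0.09978). The Ncor1 call also ended after quantile scaling (adjusted p = 0.08164) and without the intensity trend (0.1164). Brd8, at an adjusted p of 0.06129 in limma, was called without WT replicate 1 (0.03187). It was also called after quantile scaling (adjusted p = 0.03031) and with libraries scaled to equal totals (0.04065). Kat7 (-0.07 ± 0.04), Hdac2 (-0.08 ± 0.04), Brd3 (-0.07 ± 0.04) and Brd8 (-0.12 ± 0.04) were below WT in every CARM1i library without being called on the deposited scale. After quantile scaling Hdac2 was called (adjusted p = 0.03843).

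Without CARM1i replicate 3, 7 of the 35 genes were called in CARM1i against WT, 4 higher and 3 lower. Over all genes 2673 were then called, against 2784 with all libraries. Sirt7 lost its call (adjusted p = 0.09989). In CARM1i against KO, 11 of the 35 genes were then called, with Hdac5 higher and Sin3b lower added (adjusted p = 0.01787 and 0.02294). All genes called in that comparison went from 3436 to 3684. In KO against WT, leaving out CARM1i replicate 3 changes the shared estimate of the spread and the set of genes tested (14573). There it gave 14 called genes among the 35, with Hdac5 and Brd1 added, and all genes called went from 6100 to 6463.

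**Figure D3:**
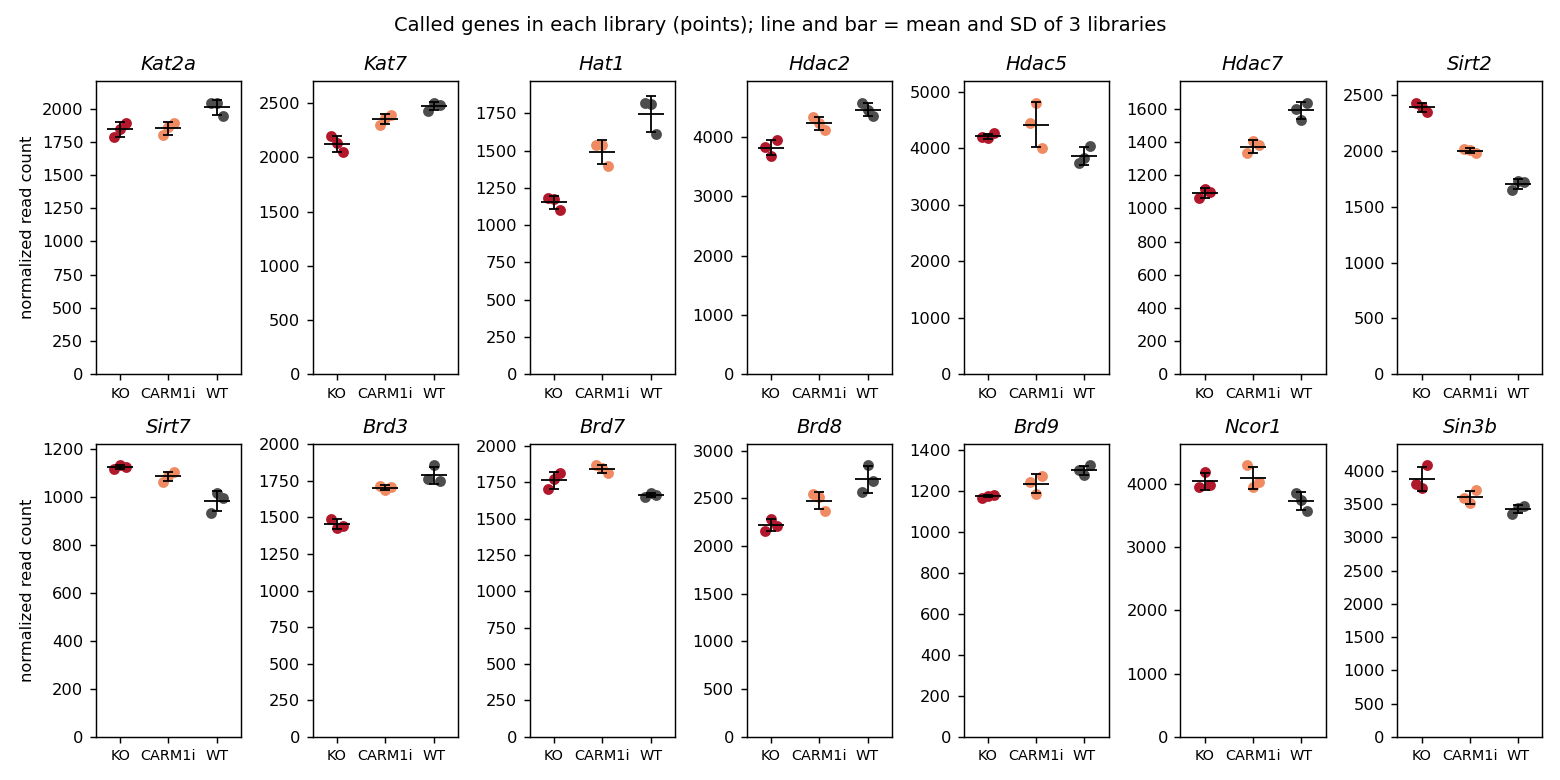
Normalized read count in each library for the 14 genes called in KO or CARM1i against WT, with points for libraries in the order KO, CARM1i and WT and a line and bar for the mean and SD of 3 libraries. Hat1 and Hdac7 are lowest in KO and highest in WT, and Sirt2 is highest in KO and lowest in WT.

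The direct comparison of the inhibitor with the deletion found 9 of the 35 genes (25.7%, against 23.6% of all genes), of which 8 were higher in CARM1i and 1 was lower. The background by direction was 12.1% higher and 11.5% lower. Hat1 was higher in CARM1i than in KO by 0.37 ± 0.06 (limma adjusted p = 8.222e-05), Hdac7 by 0.33 ± 0.05 (3.238e-05) and Brd3 by 0.23 ± 0.04 (0.0004599). Kat7 (0.14 ± 0.04), Hdac2 (0.15 ± 0.04), Brd8 (0.16 ± 0.04) and Brd1 (0.12 ± 0.04) were also higher, and Sirt2 was lower by 0.25 ± 0.04 (limma adjusted p = 7.37e-05). The calls of Kat7 and Brd1 ended without KO replicate 3 (adjusted p = 0.0631 and 0.08219), that of Brd1 also without KO replicate 2 (0.08141), and that of Brd8 without KO replicate 1 (0.06129) or CARM1i replicate 1 or 2 (0.06051 and 0.05113). Without the intensity trend the calls of Brd1 (0.05761) and Brd8 (0.07193) ended too. Hdac10 was at 585, 614 and 558 in CARM1i and 481, 489 and 456 in KO, a difference of 0.30 ± 0.07 (limma adjusted p = 0.002897) called in all 20 alternatives. Its WT libraries, at 556, 506 and 529, lay between those of the other 2 groups, and neither difference from WT was called. For Kat2a, Ncor1 and Sirt7, which were called in both comparisons with WT, the 95% interval of the log2 difference between CARM1i and KO was -0.08 to 0.09, -0.07 to 0.10 and -0.15 to 0.05. CARM1i and KO libraries did not overlap for 16 of the 35 genes, against 36.9% of all genes.

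Most of the genes that were not called were measured precisely. Of the 23 genes not called in KO against WT, 17 had a 95% interval that lay within a 1.2-fold change in either direction and 21 within 1.5-fold, with Hdac9 and Sirt4 outside the wider limit. In CARM1i against WT this held for 22 and 26 of 27 genes. The SE of the log2 fold change was 0.03 to 0.27 for the 35 genes in KO against WT (median 0.05), against a median of 0.07 over all genes tested. Many of the 35 genes overlap a neighbour on the opposite strand, and whether reads were counted by strand is not given in the sources used here. Longest was the overlap of Hdac4 with Gm26720, at 3536 of its 15813 exon bases, followed by Hdac11 with Gm44002 at 594. Other exon bases in common included 42 for Sirt2 with Nfkbib, 29 for Hdac7 with Slc48a1, 426 for Kat5 with Rnaseh2c, 360 for Brd2 with H2-DMa and 418 for Sirt3 with Ric8a, while 124 bases of Sirt7 overlap Mafg on the same strand.

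Partner genes of the same pathway were taken from 14 lists of complex subunits, other readers and supply enzymes, 163 genes without the 35, of which 161 were tested. In KO 25 of them rose and 55 fell (80 of 161, against 41.9% of all genes), with a median log2 fold change of -0.04. In CARM1i against WT 13 rose and 13 fell (16.1%, against 19.1% of all genes), but 12 rose and 20 fell with libraries scaled to equal totals, and 11 and 19 after quantile scaling. These scalings also moved all genes, from 1533 higher and 1251 lower to 1346 and 1510 with equal totals and to 1503 and 1401 after quantile scaling. In CARM1i against KO 29 were higher and 15 lower (27.3%, against 23.6% of all genes). All the lists were chosen with earlier results of these data known, so their shares beside all genes are descriptive only. All 9 genes on the list of chaperones for new histones fell in KO and 6 fell in CARM1i. That list also counts Hat1, which is 1 of the 35 genes. Over all genes, 20.5% fell in KO and 8.59% in CARM1i. The H3 and H4 chaperone gene Nasp averaged 898 ± 17.8 in KO, 1259 ± 25.7 in CARM1i and 1587 ± 122 in WT, and the chromatin assembly factor subunit gene Chaf1a averaged 1112 ± 41.8, 1730 ± 119 and 2080 ± 138 in the same order. Their log2 fold changes in KO were -0.82 ± 0.05 and -0.90 ± 0.06 (limma adjusted p = 9.2e-10 and 4.79e-10). Mcm2, a helicase subunit gene whose protein also binds H3 and H4, fell by 0.60 ± 0.04 in KO and by 0.15 ± 0.04 in CARM1i. The H3 and H4 chaperone gene Asf1b fell by 0.91 ± 0.07 in KO. This list shares Mcm2 with the S phase and mitosis genes, of which 23 of 24 fell in KO and 21 in CARM1i, so the lists are not independent.

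In KO the share of genes called was 53.8% for SIN3, 50% for NuRD, 55.6% for CoREST and MiDAC and 50% for NCOR1 partners, against 41.9% of all genes. Of 13 SIN3 subunits 6 fell and Sap18 alone rose, by 0.38 ± 0.03 (3343 ± 79.6 in KO and 2576 ± 31.8 in WT, limma adjusted p = 6.26e-08). The histone-binding subunits Rbbp7 and Rbbp4 fell by 0.29 ± 0.03 and 0.27 ± 0.03. Of 10 NuRD subunits, a list that leaves out Rbbp4, Rbbp7 and Hdac2, 3 fell and 2 rose. The remodeller gene Chd3 was at -0.37 ± 0.04, Cdk2ap1 at -0.29 ± 0.04 and the methyl-CpG reader gene Mbd2 at 0.25 ± 0.04. Of 9 CoREST and MiDAC subunits 5 fell, among them Mier1 (-0.19 ± 0.04), Rcor2 (-0.34 ± 0.10) and the demethylase gene Kdm1a (-0.13 ± 0.04). In CARM1i, where limma called 19.1% of all genes, 1 SIN3 subunit rose and 1 fell (15.4% called), and 2 NuRD subunits rose and 1 fell (30%). No CoREST or MiDAC subunit was called in CARM1i by limma, edgeR or DESeq2 (0 of 9 also at an unadjusted p under 0.05). Of 4 partners of NCOR1, Gps2 (-0.26 ± 0.07) and Tbl1x (-0.12 ± 0.03) fell in KO, and none was called in CARM1i by limma, edgeR or DESeq2 (2 of 4 at an unadjusted p under 0.05 in limma).

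On the acetyltransferase side, the share called in KO was 42.9% for NuA4/TIP60, 40% for SAGA and ATAC, 50% for the partners of MOZ, MORF and HBO1 and 50% for MSL and NSL, near the 41.9% of all genes. All 6 called of 14 NuA4/TIP60 subunits fell, among them the actin-related gene Actl6a (-0.39 ± 0.04), Ing3 (-0.32 ± 0.08) and the ATPase gene Ruvbl2 (-0.27 ± 0.04). Actl6a and Ruvbl2 also fell in CARM1i (-0.18 ± 0.04 and -0.16 ± 0.04). Of 20 SAGA and ATAC subunits 6 fell and 2 rose in KO, among them Eny2 (-0.27 ± 0.05), Sgf29 (-0.44 ± 0.10), a reader of methylated H3K4, and Taf6l (0.22 ± 0.05). None of the 20 was called in CARM1i by limma, edgeR or DESeq2 (1 of 20 at an unadjusted p under 0.05 in limma). Over all genes, limma called 19.1% in CARM1i. Of 8 partners of MOZ, MORF and HBO1, Jade1 (0.14 ± 0.03) and Jade2 (0.18 ± 0.04) rose and Meaf6 (-0.27 ± 0.09) and Ing5 (-0.13 ± 0.05) fell in KO. In CARM1i Jade1 rose (0.16 ± 0.03), while Jade2 was at -0.04 ± 0.04 and not called. Of 10 MSL and NSL subunits, 4 fell and 1 rose in KO, with Msl2 at -0.24 ± 0.04 and Kansl1 at 0.19 ± 0.04. Of 10 other acetyltransferases and coactivators only Gtf3c4 passed in KO (-0.13 ± 0.04) and only Taf1 in CARM1i (0.13 ± 0.03).

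Among 24 other bromodomain genes, 7 fell and 4 rose in KO (45.8% called, against 41.9% of all genes). Atad2, an ATPase that binds acetylated H4 on replicating chromatin, averaged 3122 ± 68.8 in KO, 5191 ± 193 in CARM1i and 5997 ± 228 in WT (-0.94 ± 0.04 in KO, limma adjusted p = 1.57e-12, and -0.21 ± 0.04 in CARM1i, 0.000618). Trim28, a corepressor gene, fell by 0.31 ± 0.03 in KO. The interferon-inducible nuclear body gene Sp100 rose by 0.55 ± 0.06 in KO and by 0.22 ± 0.06 in CARM1i. All 4 YEATS readers, which bind acetylated and crotonylated histones, fell in KO, against 20.5% of all genes. Their falls were 0.14 to 0.19 on the log2 scale, and Mllt3 also fell in CARM1i (-0.17 ± 0.05). Of the 4 readers, Yeats2 and Yeats4 are also counted with SAGA and ATAC or with NuA4/TIP60.

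Of 16 genes that supply or use acetyl-CoA and NAD, 9 rose and 1 fell in KO (62.5% called, against 41.9% of all genes), and 6 rose and 1 fell in CARM1i (43.8%, against 19.1%). Without CARM1i replicate 3, 5 rose and 1 fell in CARM1i, and the median log2 fold change was -0.0054, against 0.05 with it. Nampt, the rate-limiting enzyme of NAD salvage, averaged 4827 ± 187 in KO, 4093 ± 264 in CARM1i and 3311 ± 24 in WT (0.54 ± 0.04 in KO, limma adjusted p = 1.10e-08, and 0.30 ± 0.04 in CARM1i). Acly, which makes cytosolic acetyl-CoA from citrate, rose by 0.27 ± 0.03 in KO and 0.22 ± 0.03 in CARM1i, and the citrate carrier gene Slc25a1 by 0.43 ± 0.04 and 0.20 ± 0.04. The single gene that fell was Parp1, a consumer of NAD, at 2360 ± 96.4 in KO, 2964 ± 72.7 in CARM1i and 3303 ± 121 in WT (-0.49 ± 0.04 in KO). Of the 15 partners of class IIa deacetylases 4 rose and 4 fell in KO (53.3% called), with the kinase genes Sik1 at -0.50 ± 0.07, Prkd1 at -0.39 ± 0.06 and Camk2d at 0.23 ± 0.03.

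**Figure D4:**
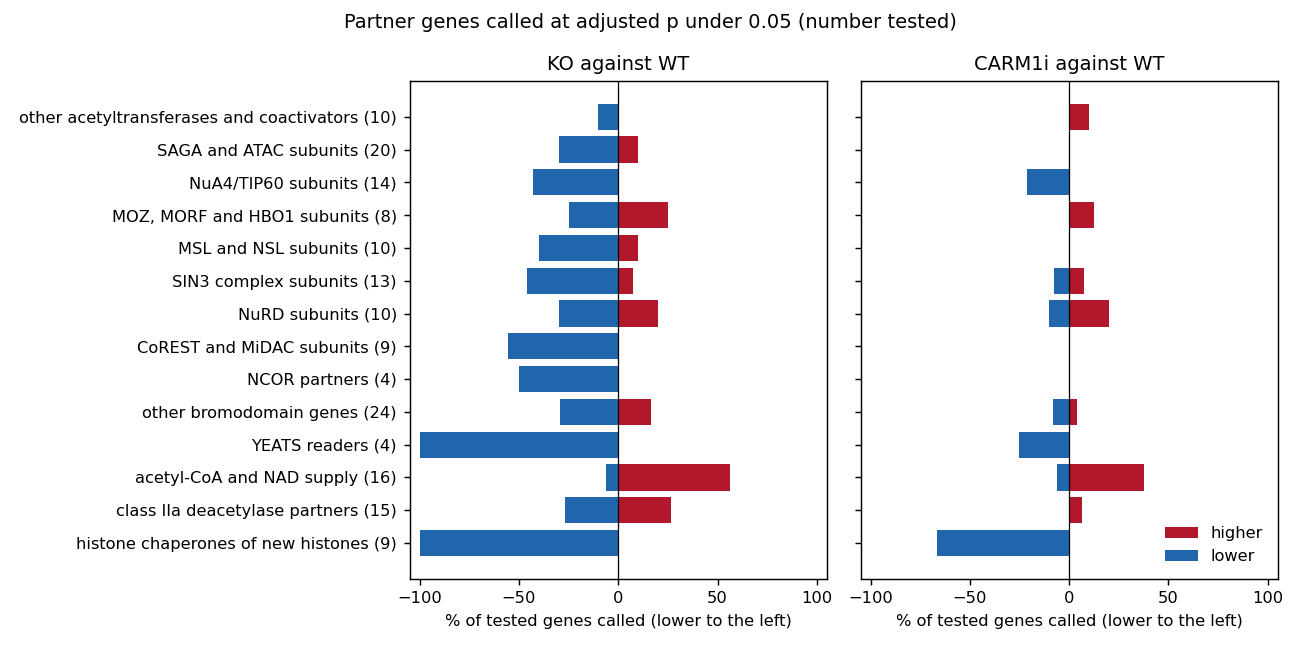
Percent of the tested genes of each partner list that were called higher (bars to the right) or lower (bars to the left) in KO against WT and in CARM1i against WT, with the number tested after each name. The lists were chosen with earlier results of these data known. All 9 chaperone genes, Hat1 included, and all 4 YEATS readers are lower in KO, against 20.5% of all genes. The acetyl-CoA and NAD list is the one with most genes higher in both panels.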

How the data were processed

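RNA from 9 libraries in 3 groups of 3 was analysed. Per the labels' protocols, the library kit was stranded. Software named in the submitters' processing notes is DESeq 1.18.0, HTSeq 0.6.0 and TopHat2 2.0.10, with the build mm10. The authors deposited a normalized signal per gene, read counts divided by a size factor per library. In each library 100% of values were whole multiples of 1 read (tolerance 1e-06), so reads were recovered for the count tests. The 16428 IDs were matched to GENCODE M21 names, 16413 without version.

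Genes with a mean of at least 10 over the 9 libraries (14560) entered a single limma fit of 3 groups (limma 3.58.1, R 4.3.3) on log2(value + 1) with the trend option. This pseudocount understates fold changes of low genes. Benjamini-Hochberg adjustment ran over all genes tested, and the threshold was 0.05. Values are mean ± SD and log2 fold changes are estimate ± SE. The members and lists were chosen with earlier results of these data known. All 35 genes are described, and partner genes are named from the 4 called genes with the smallest adjusted p per list and comparison, not all of them. Carm1, markers, and Jade2 in CARM1i are given beside these. The labels do not say whether replicates were separate cultures, and the spread that the p-values measure may therefore be technical. Replicates differed by 2.47 to 8.47 in chi-square per gene, so none was a copy. The alternatives included count tests on recovered reads in DESeq2 1.42.0 and edgeR 4.0.16. On simulated counts for KO against WT with 14451 genes tested, the fit called 36 of 100 genes changed 1.5-fold and 84 of 100 changed 2-fold in the right direction, with 6 calls on unchanged genes. Only those genes were changed there, drawn at random over all levels, while 41.9% of all genes were called in the data. The simulated shares therefore do not give the sensitivity for the 35 genes. 1 gene of the partner lists is not reported here and was left out of their counts.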

Additional observations from a re-analysis of the deposited data

How the results depend on the processing

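No called gene among the 35 reversed its direction under the alternatives tried. Requiring a 1.2-fold change left 5 of the 12 genes called in KO against WT, 0 of 8 in CARM1i against WT and 3 of 9 in CARM1i against KO, and it left 35, 6 and 11 of the partner genes and 3632, 1307 and 1633 of all genes. Without the fold minimum, edgeR called 8 and DESeq2 6 of the 35 genes in CARM1i against WT (2821 and 2611 of all genes). An adjusted p under 0.01 left 3 of the 35 genes, 12 partner genes and 1668 of all genes in CARM1i against WT, and 29 partner genes and 2155 of all genes in CARM1i against KO. Without the intensity trend, CARM1i against WT had 3 of the 35 genes, 15 partner genes and 1797 of all genes. Leaving out 1 library gave 11 to 14 of the 35 genes in KO against WT, 5 to 7 in CARM1i against WT (5 without CARM1i replicate 1 or 2 or WT replicate 2) and 7 to 11 in CARM1i against KO, and 17 to 26 partner genes in CARM1i against WT (17 without WT replicate 1 or 2). All genes called then ran from 5245 to 6463, 1937 to 2676 and 2599 to 3684 in KO against WT, CARM1i against WT and CARM1i against KO. The cause was not tested. The alternatives for partner genes were chosen after seeing the data.

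No pairing by replicate number was seen. Correlations of deviations from the group mean ran from -0.09 to 0.03 for same-numbered libraries and from -0.04 to 0.07 for differently numbered ones. With 3 libraries a group, this does not exclude a pairing. With the replicate block, 12, 6 and 10 of the 35 genes were called in KO against WT, CARM1i against WT and CARM1i against KO, and Carm1 stayed at -0.54 in KO. All genes called were 5865, 2553 and 3156 in the same order.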
